A study of Homo sapiens with 11 samples.

Results

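SHOX2-positive cardiomyocytes are described here in H9, a human embryonic stem cell line, differentiated to heart cells. They were chosen by the transcription factor gene SHOX2, with a working name of sinus-node-like cells. A cell was taken as a cardiomyocyte when TNNT2 and MYH6, which encode sarcomere proteins, together made up at least 0.15% of its unique molecular identifiers (UMIs, tags that mark separate RNA molecules). It was a member when it had at least 1 SHOX2 UMI and fewer than 3 UMIs of NPPA and NR2F1 together, genes of atrial working muscle. Members numbered 495 of 13426 cardiomyocytes, among 16397 cells that passed the filters on depth and mitochondrial RNA. The values of SHOX2, NPPA, NR2F1, TNNT2 and MYH6 chose the members and are given only as a description.

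The sinus node is the pacemaker of the heart, at the junction of the caval vein and the right atrium. SHOX2, TBX18, ISL1 and TBX3 are transcription factors of its development in mouse. TBX18 specifies the sinus horn, SHOX2 restrains NKX2-5, the factor of working muscle, and TBX3 represses working muscle genes. Node cells fire through HCN channels, which carry the funny current, and the calcium channel encoded by CACNA1D, and slow down through the muscarinic receptor encoded by CHRM2.

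Heart organoids called cardioids were grown with PD173074, which blocks FGF receptors, or without it, and were set beside a 2D culture, all on day 42.5. The labels name no dose or timing of PD173074, no separate cultures and no other genetic change in H9. There were 3 single-cell RNA libraries of cardioids with PD173074, 5 of cardioids that had none and 3 of the 2D culture. The libraries of a group were repeat runs of the same droplets, with 99.4% to 99.9% of the barcodes of the shorter list in common between run 1 and each other run, so each group is 1 sample and run 1 is used throughout. As every group is 1 sample, no difference could be checked in replicates or tested, and each 95% interval covers counting error only. For the same reason p-values are not given.

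Run 1 held 37765195 UMIs in the library with PD173074, 23074862 in the untreated cardioid library and 46304366 in that of the 2D culture. Members had a median of 7180 UMIs and SHOX2-negative cardiomyocytes 5897 with PD173074. Without PD173074 the medians were 4720.5 UMIs in members and 5393 in SHOX2-negative cardiomyocytes, and in the 2D culture 4572.5 and 4298. Runs of different groups shared 9 to 22 barcodes, and no member with PD173074 shared a barcode with a member without it.

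With PD173074, 419 of 3385 cardiomyocytes were members, a share of 12.4% (11.3 to 13.5, exact binomial interval). Without PD173074 the share was 2.27% (70 of 3082, 1.77 to 2.86), and in the 2D culture it was 0.0862% (6 of 6959, 0.0316 to 0.188). The 3 intervals did not overlap, but they cover counting error only and not the spread between cultures, as each group is 1 sample. After each cell was thinned to 2000 UMIs, the shares were 7.10%, 1.30% and 0.0466% in the same order. Free RNA in droplets can give a SHOX2 UMI to a cell that does not express the gene, so the share was also taken in epithelial and endoderm cells, which should lack it. That share was 1.30% with PD173074 (7 of 540 thinned cells, 0.523 to 2.65) and 0.676% without it (1 of 148, 0.0171 to 3.71), and unthinned 4.24% and 2.01% at median depths of 10057.5 and 6786 UMIs. The share of members lay above this background with PD173074 and within its interval without PD173074.

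**Figure D1:**
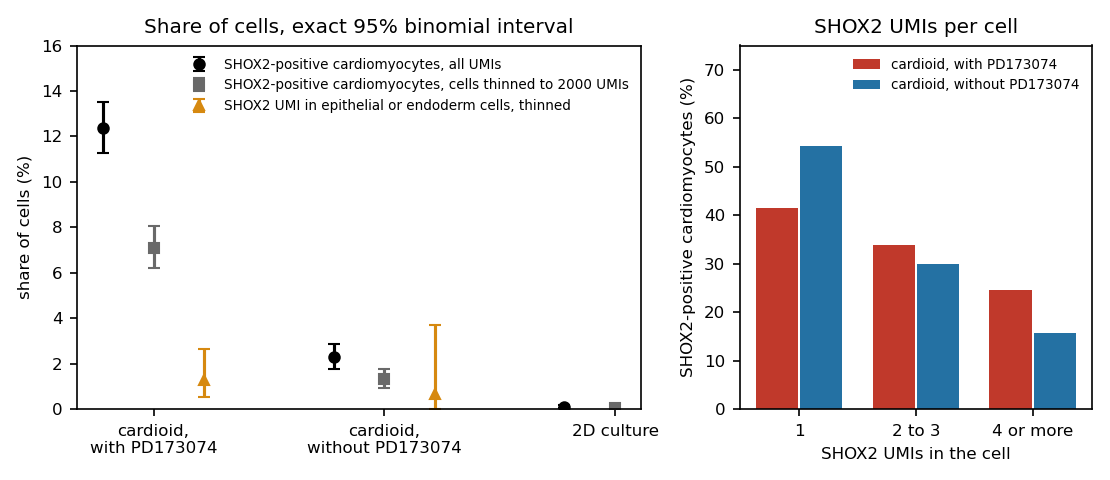
Left, share of cells (%) with exact 95% binomial intervals for PD173074-treated cardioids, untreated cardioids and the 2D culture: members among cardiomyocytes before and after thinning to 2000 UMIs, and cells with a SHOX2 UMI among thinned epithelial or endoderm cells (not drawn for the 2D culture, which has 7 such cells). Right, share of members (%) by their number of SHOX2 UMIs; 12.4% of cardiomyocytes were members with PD173074, against 2.27% without it.

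SHOX2 itself was counted at low numbers. With PD173074, 174 members had 1 SHOX2 UMI, 142 had 2 to 3 and 103 had 4 or more, with a highest count of 24. Without PD173074 these were 38, 21 and 11 members, with a highest count of 9, and in the 2D culture 5 members had 1 UMI and 1 had 2. Membership was not stable between runs. Of the members with PD173074, 75.7% and 76.8% were members again in the other runs, and of those without PD173074, 45.7% to 75.7%. The lowest of these was in run 3 without PD173074, which held 12266166 UMIs against 23074862 in run 1, and the part of depth in it was not tested. The limit on NPPA and NR2F1 set aside 51 further SHOX2-positive cardiomyocytes with PD173074 and 3 from cardioids that had none, and 0 from the 2D culture. Members with 2 UMIs of these genes, just inside the limit, had 312 ALDH1A1 and 150 BMP4 CPM (UMIs of the gene per 1000000 UMIs, summed over cells) with PD173074, and cells with 3 to 5, just outside, had 203 and 205 CPM. At the threshold on TNNT2 and MYH6, members at 0.15% to 0.25% had 3565 CPM of MYL7 and 216 CPM of COL1A1 with PD173074, and SHOX2-positive cells at 0.05% to 0.15% had 1537 and 600 CPM.

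The promoters of SHOX2, TBX18, ALDH1A1 and NXPH1 are shown, 4 of the genes whose transcripts were found in the same cells, as given next. Each is the 250 bases before the start of transcription, on the gene's own strand, from RefSeq on GRCh38.p14. SHOX2 is at chr3:158106164-158106413 on the minus strand, TBX18 at chr6:84764599-84764848 on the minus strand, ALDH1A1 at chr9:72953054-72953303 on the minus strand and NXPH1 at chr7:8433359-8433608 on the plus strand. Capitals mark AGGTGT, the core bound by T-box factors such as TBX18, TBX3 and TBX5, searched on both strands.
SHOX2: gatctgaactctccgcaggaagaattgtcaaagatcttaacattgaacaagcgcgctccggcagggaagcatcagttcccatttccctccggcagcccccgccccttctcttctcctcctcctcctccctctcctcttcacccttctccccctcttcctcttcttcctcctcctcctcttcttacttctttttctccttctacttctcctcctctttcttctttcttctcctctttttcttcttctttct
TBX18: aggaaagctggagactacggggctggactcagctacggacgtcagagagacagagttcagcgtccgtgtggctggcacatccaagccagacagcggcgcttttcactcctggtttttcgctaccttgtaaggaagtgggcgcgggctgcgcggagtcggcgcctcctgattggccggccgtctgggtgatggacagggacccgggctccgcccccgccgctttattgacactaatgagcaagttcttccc
ALDH1A1: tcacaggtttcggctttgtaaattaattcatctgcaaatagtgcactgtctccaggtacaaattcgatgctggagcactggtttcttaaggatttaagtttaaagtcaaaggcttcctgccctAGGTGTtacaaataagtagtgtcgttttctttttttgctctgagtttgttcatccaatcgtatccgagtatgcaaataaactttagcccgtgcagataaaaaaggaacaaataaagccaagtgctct
NXPH1: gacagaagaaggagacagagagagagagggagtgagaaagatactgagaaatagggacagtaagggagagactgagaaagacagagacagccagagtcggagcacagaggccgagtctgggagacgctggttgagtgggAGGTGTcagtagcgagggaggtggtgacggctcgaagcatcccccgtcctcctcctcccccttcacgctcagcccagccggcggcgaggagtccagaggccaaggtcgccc
The motif was found 127 bases before the start of ALDH1A1 and 111 bases before that of NXPH1. The windows of ISL1 and BMP4, which has 3, were searched in the same way. They had no match to the motif and are not shown. AGGTGT was in 9.57% of all 35116 promoter windows of this length. In none of the 4 windows shown was there a match to TAATTA, a homeodomain core, or to TNAAGTG, a site of NKX2-5. These were in 4.35% and 8.73% of windows. A match is a string of letters and not a measured binding site.

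In the same library, members and SHOX2-negative cardiomyocytes were compared gene by gene. A gene was placed apart when its higher side had at least 20 CPM and the whole interval of its ratio lay beyond 1.5-fold. With PD173074, 258 of 7914 genes were higher in members (3.26%) and 237 were lower (2.99%). Without PD173074, 303 of 8414 were higher (3.6%) and 158 lower (1.88%). In both libraries 129 genes were higher (1.7% of the 7607 tested in both) and 66 lower (0.868%). The 129 are 50% of the higher genes with PD173074 and 42.6% of those without it, and the 66 are 27.8% and 41.8% of the lower ones. Only 6 genes were placed apart in opposite directions. Without PD173074, 20 of the 303 higher genes were seen in fewer than 5 members and 21 owed over 50% of their UMIs to 1 cell. With PD173074 these were 0 and 1 of 258.

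**Figure D2:**
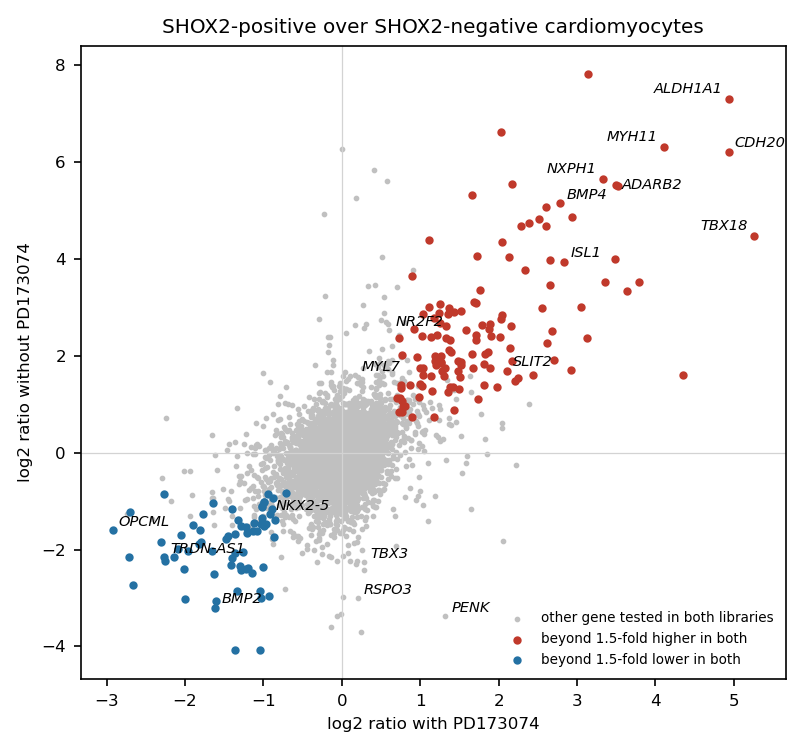
Each point is a gene tested in both cardioid libraries, with the log2 ratio of CPM in members over SHOX2-negative cardiomyocytes with PD173074 (x axis) and without PD173074 (y axis); SHOX2 and the other genes of the rule are left out. The 129 genes higher in both libraries are red and the 66 lower in both are blue; TBX18 and ALDH1A1 lie far to the upper right, BMP2 and OPCML to the lower left, and TBX3 and RSPO3 below 0 on the y axis and near 0 on the x axis.

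Of the 6 sinus node factors listed, SHOX2 is part of the rule and the other 5 were measured. TBX18 and ISL1 were higher in members of both libraries. TBX18 had 52.7 CPM in members and 1.38 CPM in SHOX2-negative cardiomyocytes with PD173074, and 20.3 and 0.911 CPM without it, log2 ratios of 5.26 (4.68 to 5.88) and 4.47 (3.13 to 5.72). Its UMIs were found in 17.4% of members with PD173074 and in 5 of 70 without it. ISL1, a factor of cardiac progenitors that is kept in the node, had 66.2 and 9.25 CPM with PD173074 and 58.5 and 3.81 CPM without it. In the 6 members of the 2D culture neither gene had a UMI, which allows up to 93.5 CPM, so their level there was not detectable at this depth.

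TBX3 went against the working name. With PD173074 it had 71.2 CPM in members and 58.3 CPM in SHOX2-negative cardiomyocytes, a log2 ratio of 0.29 (0.09 to 0.48) that was not placed apart. Without PD173074 it was lower in members, at 56.3 CPM against 271 CPM, a log2 ratio of -2.27 (-2.90 to -1.70). The SHOX2-negative cardiomyocytes without PD173074 had the highest of the 4 levels. TBX5, which acts upstream of SHOX2 in mouse, was higher in members without PD173074, at 304 against 168 CPM, and was not placed apart with it, at 343 against 283 CPM. Its call without PD173074 was lost in 9 of 17 alternatives, with log2 ratios of 0.38 to 1.08 over all 17. TBX2, a repressor related to TBX3, was placed apart in neither library.

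HCN4, the main pacemaker channel of the node, was placed apart in neither library. It had 147 CPM in members and 121 CPM in SHOX2-negative cardiomyocytes with PD173074, a log2 ratio of 0.29 (0.15 to 0.42). Without PD173074 it had 131 and 73.1 CPM, a log2 ratio of 0.84 (0.43 to 1.22), and neither interval lay beyond 1.5-fold. Without the deepest member, which held 10.6% of the UMIs of members there, the log2 ratio without PD173074 was 1.0 and HCN4 was placed higher, as in 3 of 17 alternatives in all. At 2 or more SHOX2 UMIs the log2 ratio of HCN4 was 0.02, and against SHOX2-negative cells with at least 2 NR2F2 UMIs it was 0.44, and over all 17 it ran from 0.02 to 1.19. HCN4 UMIs were found in 61.1% of members and 47.7% of SHOX2-negative cardiomyocytes with PD173074. Since neither TBX3 nor HCN4 was higher in members of both libraries, they are called SHOX2-positive cardiomyocytes here and not sinus node cells.

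Of the 13 pacemaker channel and calcium-handling genes, 11 were tested in each library, and 2 were higher in each. CACNA1D was higher in both. It had 2656 CPM in members and 1301 CPM in SHOX2-negative cardiomyocytes with PD173074, and 2111 and 696 CPM without it, log2 ratios of 1.03 (1.0 to 1.06) and 1.6 (1.5 to 1.70). Its partner subunit gene CACNA2D2 was higher with PD173074, at 36.5 against 18.6 CPM. The call of CACNA2D2 was lost in 8 of 17 alternatives, with log2 ratios of 0.73 to 1.23 over all 17. CACNA1C, the calcium channel of working muscle, was lower in members with PD173074, at 463 against 1133 CPM. Without PD173074 it was not placed apart, at 308 against 428 CPM. The T-type channel CACNA1G, the acetylcholine-gated channel subunits KCNJ3 and KCNJ5, the gap junction gene GJC1, the exchanger SLC8A1 and the release channel RYR2 were placed apart in neither library. The median log2 ratio of the list was 0.09 with PD173074 and 0.28 without it, against -0.00 and -0.04 over all genes tested.

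Autonomic signalling was represented by 8 tested genes. The receptor gene CHRM2 and RGS6, which encodes a brake on its G protein, were higher in members of both libraries. CHRM2 had 1462 CPM in members and 737 CPM in SHOX2-negative cardiomyocytes with PD173074, and 1172 and 527 CPM without it. RGS6 had 690 and 292 CPM with PD173074, and 551 and 75.2 CPM without it, log2 ratios of 1.24 (1.17 to 1.31) and 2.87 (2.67 to 3.07). RGS5, known from pericytes and atrial muscle, was lower in members without PD173074, at 45.0 against 111 CPM, and not placed apart with it, at 69.9 against 43.5 CPM. The call of RGS5 was lost in 10 of 17 alternatives, with log2 ratios of -1.91 to -0.76 over all 17.

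Of 7 tested genes in a list of other sinus node markers, 5 were higher in both libraries and none was lower, with median log2 ratios of 2.79 with PD173074 and 3.52 without it. This list holds BMP4, ALDH1A1 and NXPH1, which with MYH11 were named for these cells from earlier results of the same data and so are no independent support. The remaining VSNL1, a calcium sensor, had 103 CPM in members and 45.7 CPM in SHOX2-negative cardiomyocytes with PD173074, and 126 and 18.4 CPM without it. NTM, a cell adhesion gene, had 57.7 and 5.61 CPM with PD173074, and 27.0 and 2.36 CPM without it. IGFBP5 and CPNE5 were placed apart in neither library, and SMOC2 was below the floor in both.

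ALDH1A1, which makes retinoic acid, had 323 CPM in members and 10.6 CPM in SHOX2-negative cardiomyocytes with PD173074, and 243 and 1.55 CPM without it. The log2 ratios were 4.93 (4.72 to 5.15) and 7.29 (6.69 to 7.93). BMP4, a secreted growth factor, had 251 and 36.4 CPM with PD173074, and 214 and 6.0 CPM without it. NXPH1, a ligand of neurexins, had 130 and 13.0 CPM with PD173074, and 99.0 and 1.98 CPM without it. The smooth muscle myosin gene MYH11 had 132 and 7.62 CPM with PD173074, and 198 and 2.52 CPM without it. Without PD173074, 1 cell held 44.3% of the MYH11 UMIs of members, and without that cell members had 113 CPM. Among the 4 sets of cardioid cells, the 4 genes were lowest in SHOX2-negative cells without PD173074. In SHOX2-negative cells of the 2D culture ALDH1A1 had 0.0824 CPM, BMP4 1.13 CPM, NXPH1 0.494 CPM and MYH11 4.83 CPM.

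**Figure D3:**
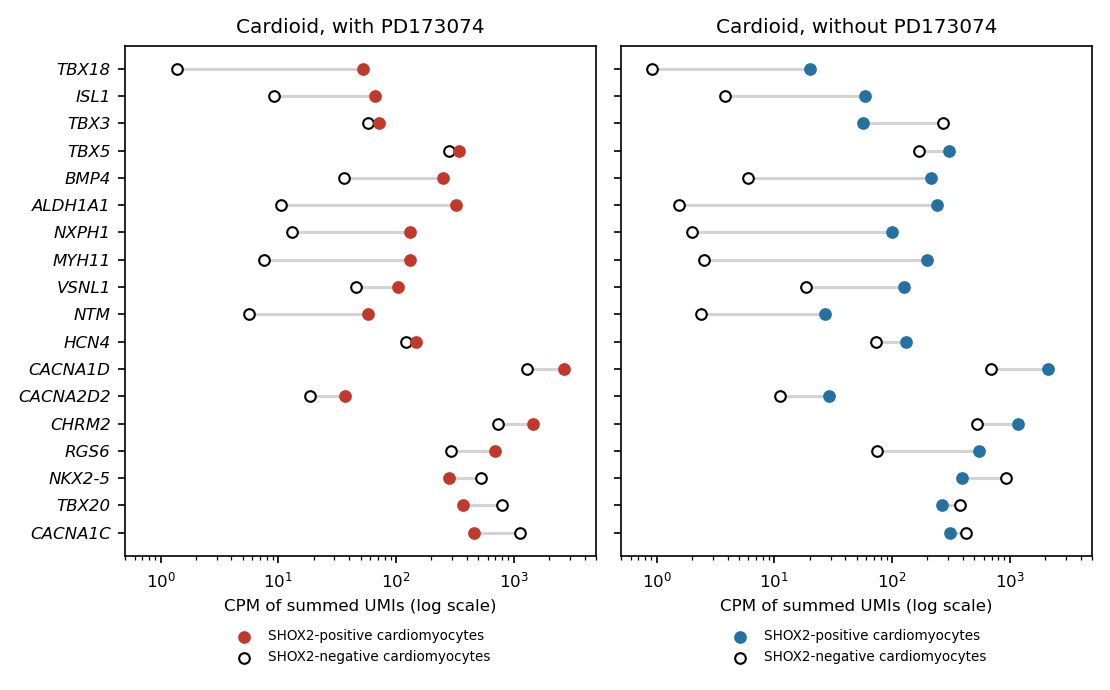
Level in CPM (log scale) of 18 genes in members (filled) and SHOX2-negative cardiomyocytes (open) of the cardioid library with PD173074 (left) and without it (right), from summed UMIs with no error bars. Members are far to the right for TBX18, ISL1, BMP4, ALDH1A1, NXPH1 and MYH11, and to the left for NKX2-5; HCN4 and TBX3 nearly coincide with PD173074.

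The same genes were found together in single cells. BMP4, ALDH1A1, NXPH1 and MYH11 were picked as markers of these cells from the same data, so the excess in members is a description and no independent support. With PD173074, 226 of 419 members (53.9%, 49.0 to 58.8) had UMIs of at least 2 of TBX18, BMP4, ALDH1A1, NXPH1 and MYH11, against 91 of 2915 SHOX2-negative cardiomyocytes (3.12%, 2.52 to 3.82). Without PD173074 these were 27 of 70 (38.6%, 27.2 to 51.0) and 18 of 3009 (0.598%). After thinning to 2000 UMIs the shares were 31.2% and 1.24% with PD173074. In the 2D culture 0 of 6 members and 8 of 6953 SHOX2-negative cardiomyocytes had 2 of them, and MYH11 in 1 cell was the only one of the 5 genes found in those members. No UMI of the 5 genes was found in 83 members with PD173074 and in 19 without it. Among members with PD173074, ALDH1A1 was found in 84.9% of those with TBX18 and 43.1% of those without TBX18. MYH11 was found in 40.3% of members with ALDH1A1 and 6.73% of those without it. Deeper cells show more genes, so these shares within members also carry depth.

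The genes differed in how they followed the number of SHOX2 UMIs. These classes are formed from the SHOX2 counts that chose the members. ALDH1A1, NXPH1 and MYH11 were also picked as markers from the same data. The values by class are therefore a description and no independent support. With PD173074, TBX18 had 1.38, 10.7, 38.9 and 104 CPM in cardiomyocytes with 0, 1, 2 to 3 and 4 or more SHOX2 UMIs. ALDH1A1 had 10.6, 154, 329 and 472 CPM in the same classes, and NXPH1 13.0, 65.2, 139 and 182 CPM. NKX2-5 ran the other way, with 528, 358, 283 and 205 CPM. HCN4 had 121, 154, 145 and 142 CPM and TBX3 58.3, 72.6, 62.4 and 78.1 CPM, with overlapping intervals among the 3 classes of members. Median depth was 5897, 5831.5, 7957.5 and 10223 UMIs in these classes, so they were also formed by SHOX2 per UMI, in 3 classes of 139 or 140 members. Here the class with most SHOX2 was the shallowest, and TBX18 had 16.2, 52.8 and 110 CPM and ALDH1A1 177, 313 and 567 CPM from low to high. NKX2-5 had 331, 244 and 244 CPM and HCN4 133, 164 and 147 CPM. TBX3 had 59.6 (48.1 to 73.1), 68.8 and 92.4 CPM (74.4 to 113). Its intervals in the lowest and highest of these classes did not overlap. Without PD173074 the classes held 38, 21 and 11 members. ALDH1A1 had 167, 331 and 292 CPM there and TBX18 9.28, 15 and 52.2 CPM, with overlapping intervals for TBX18. NKX2-5 had 343, 571 and 240 CPM and MYH11 283, 150 and 73.0 CPM, so the order seen for NKX2-5 with PD173074 was not found there.

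**Figure D4:**
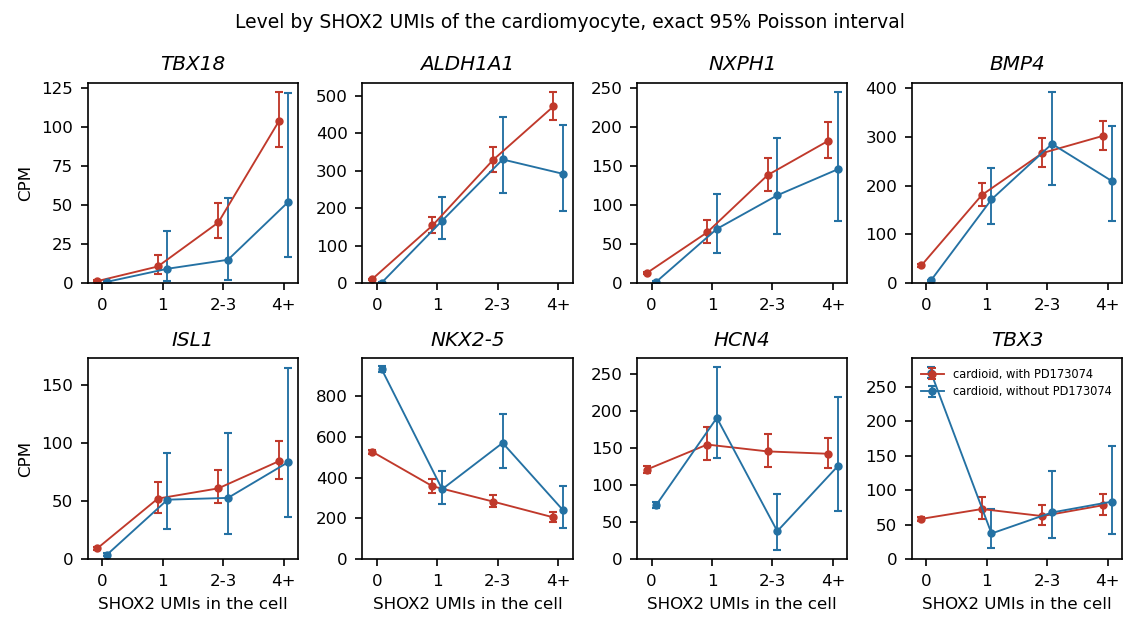
Level in CPM of 8 genes by the number of SHOX2 UMIs of the cardiomyocyte, with PD173074 and without it, with exact 95% Poisson intervals. The classes use the SHOX2 counts that chose the members, so the levels are a description. TBX18, ALDH1A1 and NXPH1 were higher in each further class with PD173074, up to 104, 472 and 182 CPM. HCN4 and TBX3 had 142 and 78.1 CPM in the last class, with overlapping intervals among the classes of members.

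Some genes of working muscle were lower in members. NKX2-5 had 280 CPM in members and 528 CPM in SHOX2-negative cardiomyocytes with PD173074, and 389 and 933 CPM without it, log2 ratios of -0.92 (-1.01 to -0.83) and -1.26 (-1.49 to -1.05). The call of NKX2-5 with PD173074 was lost in 3 of 17 alternatives, with -0.60 at a threshold of 0.5% on TNNT2 and MYH6. It was still found in 68.7% of members with PD173074 and in 65.7% without it. All 6 members of the 2D culture had NKX2-5 UMIs. The factor TBX20 was lower with PD173074, at 371 against 788 CPM, and not placed apart without it. Together 3 of 5 tested genes of working muscle were lower with PD173074, and 1 of 3 without it. In members without PD173074 the connexins GJA1 and GJA5 and the peptide gene NPPB had 0 UMIs, which allows up to 6.75 CPM, while SHOX2-negative cardiomyocytes had at most 2.52 CPM.

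Without PD173074 members had more of some atrial and less of most ventricular genes than the SHOX2-negative cells of their library. They were higher in MYL7, the atrial myosin light chain, at 7894 against 2605 CPM, and in NR2F2, an atrial factor, at 457 against 79.5 CPM. With PD173074 MYL7 had 8877 and 7900 CPM and NR2F2 579 and 380 CPM, and neither was placed apart. Of 10 tested ventricular genes, 7 were lower in members without PD173074, among them IRX4, a ventricular factor, at 24.8 against 85.0 CPM, and MASP1, at 13.5 against 156 CPM. MYL2, the ventricular light chain, had 0 UMIs in these members, at least 5.53-fold lower than the 37.4 CPM of SHOX2-negative cells, with the 0 set to 3 counts over the members. With PD173074, 1 of 5 tested ventricular genes was lower. Among 13 sarcomere genes outside the rule, TNNI3, the adult cardiac troponin I, was the 1 higher with PD173074, at 105 against 53.1 CPM, and none was lower. Without PD173074 MYL7 was higher and MYL3 lower. The sarcomere genes summed to 27199 CPM in members and 28320 CPM in SHOX2-negative cardiomyocytes with PD173074, and to 27097 and 20130 CPM without it.

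Signalling genes other than BMP4 also separated the cells. BMP2 was lower in members, at 37.1 against 114 CPM with PD173074 and 60.8 against 557 CPM without it. Over all genes tested, 3.26% were higher and 2.99% lower in members with PD173074, and 3.6% and 1.88% without it. Of the BMP list, 2 of 14 genes were higher and 1 lower with PD173074, and 1 of 15 higher and 3 lower without it. The higher ones were BMP4 and BMP7 with PD173074 and BMP4 alone without it. BMP4 is a marker picked from the same data, so its part in these counts is no independent support. ID4, a BMP target, was among the lower ones without PD173074 at 401 against 1279 CPM, with 64.6% of its UMIs in members from 1 cell. RSPO3, an enhancer of WNT signalling, was lower in members without PD173074, at 131 against 1046 CPM, and not placed apart with it, at 133 against 115 CPM. The WNT antagonist DKK1 was higher in both, at 64.8 against 16 CPM with PD173074 and 108 against 20.5 CPM without it. The call of DKK1 was lost with PD173074 at a threshold of 0.5% on TNNT2 and MYH6 (log2 ratio 0.85) and without PD173074 in run 2 (0.89). In the retinoic acid list ALDH1A1, also a marker picked from the same data, was the only gene higher in both libraries. DUSP6, a feedback phosphatase of ERK, was higher in members with PD173074, at 25.9 against 8.61 CPM (log2 ratio 1.59, 1.22 to 1.96, and 0.92 without the 5% deepest cardiomyocytes, where the call was lost), and not placed apart without it, at 20.3 against 21.2 CPM.

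The 12 genes named as highest in both libraries include TBX18, ALDH1A1, BMP4, NXPH1 and MYH11, given above. KCNG1, a modifier of potassium channels, had 150 CPM in members and 13.0 CPM in SHOX2-negative cardiomyocytes with PD173074, and 173 and 3.81 CPM without it. CACNA2D3, a calcium channel subunit, had 276 and 45.2 CPM with PD173074, and 225 and 6.70 CPM without it. ADARB2, related to RNA editing enzymes, had 473 and 41.9 CPM with PD173074, and 470 and 10.2 CPM without it. CDH20, a cadherin, had 144 and 4.72 CPM with PD173074, and 135 and 1.82 CPM without it, with UMIs in 12 of 70 members and 30% of them in 1 cell. NTRK2, a neurotrophin receptor, CSMD3, a membrane protein gene, and TCF21, a factor of cardiac fibroblasts and epicardium, completed the list. Outside these 12, SLIT2, an axon guidance ligand, was higher in both libraries, at 966 against 224 CPM with PD173074 and 722 against 224 CPM without it, as was the cation channel TRPM3, at 394 against 62.7 CPM and 342 against 31.0 CPM.

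The lowest genes in both libraries included EPHA4, a receptor of ephrins, at 82.6 CPM in members against 255 CPM with PD173074 and 92.3 against 520 CPM without it. SLC27A6, a fatty acid carrier of heart muscle, had 22.5 against 99.0 CPM with PD173074 and 60.8 against 268 CPM without it. OPCML, an adhesion gene, had 30.7 against 233 CPM with PD173074 and 20.3 against 61.0 CPM without it, where its call was lost in 6 of 17 alternatives (log2 ratios of -3.45 to -0.89 over all 17). CORIN, the protease that activates natriuretic peptides, had 106 against 396 CPM with PD173074 and 194 against 543 CPM without it. MYLK3, the kinase of the cardiac light chain, was lower in both as well, at 9.0 against 23.1 CPM with PD173074 and 2.25 against 37.7 CPM without it, where it rested on 1 UMI. KDR, an endothelial receptor also found in early heart cells, was lower in both, at 11.4 against 48.3 CPM and 24.8 against 98.4 CPM.

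Some smooth muscle and stromal genes were higher in members. Of 9 tested smooth muscle genes, 4 were higher with PD173074 and 6 without it, and none was lower. Both counts include MYH11, a marker picked from the same data and so no independent support. Over all genes tested, 3.26% were higher with PD173074 and 3.6% without it. MYLK, the light chain kinase of smooth muscle, had 403 CPM in members and 97.7 CPM in SHOX2-negative cardiomyocytes with PD173074, and 403 and 19.8 CPM without it. DES, the muscle intermediate filament, and TAGLN, an actin binder, were the other genes higher in both. The call of DES was lost in 3 of 17 alternatives without PD173074, and that of TAGLN in 8 of 17 with it and 4 of 17 without it. Of 10 stromal genes, 6 of 9 tested were higher with PD173074 and 4 of 8 without it, with PDGFRA at 94.5 against 36 CPM and 69.8 against 16.6 CPM. The summed level of the stromal list was 1354 CPM in members and 769 CPM in SHOX2-negative cardiomyocytes with PD173074, and 992 and 537 CPM without it. It was 5698 and 6886 CPM in SHOX2-positive cells below the threshold on TNNT2 and MYH6. PRRX1, a mesenchymal factor chosen here after its values were seen, had 195 and 30.8 CPM with PD173074, and 119 and 7.61 CPM without it. The part of other cells or of doublets in these values was not tested. No doublet caller was run. The deepest member with PD173074, at 67403 UMIs, had 14 UMIs of SHOX2, 43 of the epithelial gene GABRP and 5 of EPCAM. The deepest member without PD173074 had 0 GABRP UMIs and 6 of EPCAM. When the deepest member with PD173074 was left out, 253 genes were higher there. Without the 5% deepest cardiomyocytes 243 of 7906 genes were higher with PD173074, in place of 258, and 336 of 8301 without it, in place of 303. A cut on depth does not identify doublets, so these counts do not address them.

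SHOX2-positive cells below the threshold, 111 with PD173074 and 18 without it, shared part of the pattern. With PD173074 they had 96.0 CPM of TBX18, 201 CPM of ALDH1A1 and 93.7 CPM of NXPH1, but 37.0 CPM of BMP4, near the 36.4 CPM of SHOX2-negative cardiomyocytes. Their HCN4 was 27.2 CPM and their MYL7 705 CPM. With PD173074, WT1 and MSLN of the epicardial list and PECAM1, TIE1 and VWF of the endothelial list had 0 UMIs in members. Without PD173074, WT1, UPK1B, ALDH1A2 and MSLN of the epicardial list and PECAM1, CDH5, ESAM, TIE1 and VWF of the endothelial list had 0 UMIs. Of the epicardial list, TBX18 was the 1 gene of 2 tested that was higher with PD173074, and TBX18 and KRT19 were higher and ALDH1A2 lower of 3 tested without it. The epicardial list summed to 142 CPM in members and 89.3 CPM in SHOX2-negative cardiomyocytes with PD173074, and to 187 and 90.1 CPM without it. KRT19 had 155 and 65.9 CPM without PD173074, with 58.0% of its UMIs in members from 1 cell. The epithelial and endoderm list summed to 111 and 105 CPM with PD173074, and to 221 and 102 CPM without it, where CLDN4 was higher at 85.5 against 1.88 CPM, with UMIs in 2 members and 86.8% of them in 1. The endothelial list summed to 34.1 and 66.9 CPM with PD173074, and to 58.5 and 127 CPM without it, with KDR lower in both. The part of these cell types in the values of members was not tested. The UMI total of members was 3778108 with PD173074, where a count of 0 allows 0.794 CPM.

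Members with PD173074 were set beside members without it. Of genes in members, 18 of 8277 were higher with PD173074 beyond 2-fold (0.217%) and 41 were lower (0.495%). In SHOX2-negative cardiomyocytes 213 of 8054 were higher (2.64%) and 161 lower (2%), but these are many more cells and so have narrower intervals. A measure that leaves out the intervals was therefore taken over 2407 genes with at least 100 CPM in any of the 4 sets of cells. The ratio of members with PD173074 over members without it was beyond 2-fold for 58 of them (2.41%), and the same ratio in SHOX2-negative cardiomyocytes for 204 (8.48%). Members without PD173074 differed by over 2-fold from the SHOX2-negative cells of their own library in 218 genes (9.06%), and from those of the library with PD173074 in 137 (5.69%). With PD173074, members and SHOX2-negative cells differed so in 141 (5.86%).

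Several genes that differed between the SHOX2-negative cardiomyocytes of the 2 libraries had like levels in both sets of members. RSPO3 had 133 CPM in members with PD173074 and 131 CPM in members without it, a log2 ratio of 0.02 (-0.37 to 0.44), while the ratio in SHOX2-negative cells was -3.18. TBX3 had a log2 ratio of 0.34 (-0.25 to 0.99) in members and -2.21 in SHOX2-negative cells. NR2F2 had 0.34 (0.13 to 0.56) in members and 2.26 in SHOX2-negative cells, and MYL7 had 0.17 (0.12 to 0.22) and 1.6. Of 6 genes of FGF and ERK feedback tested in members, 0 were placed beyond 2-fold with PD173074 over without it. Over all genes tested in members 0.217% were higher and 0.495% lower, so 0 of 6 is near that share. The median log2 ratio of the 6 was 0.02, against -0.05 over all genes. In SHOX2-negative cardiomyocytes, with more cells and narrower intervals, 3 of 6 were lower with PD173074, against 2% of all genes. Their median was -1.15, against -0.08 over all genes. DUSP6 had 25.9 CPM in members with PD173074 and 20.3 CPM in members without it, a log2 ratio of 0.36 (-0.63 to 1.53), so a difference in either direction is within its counting error. Members were also compared with SHOX2-negative cells that had at least 2 NR2F2 UMIs, a choice made after the data were seen. These were 49.9% of SHOX2-negative cardiomyocytes with PD173074 and 10.2% without it. Against these cells, 242 genes were higher in members with PD173074 and 193, in place of 303, without it. MYL7 was then not placed apart without PD173074, with a log2 ratio of 0.51.

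**Figure D5:**
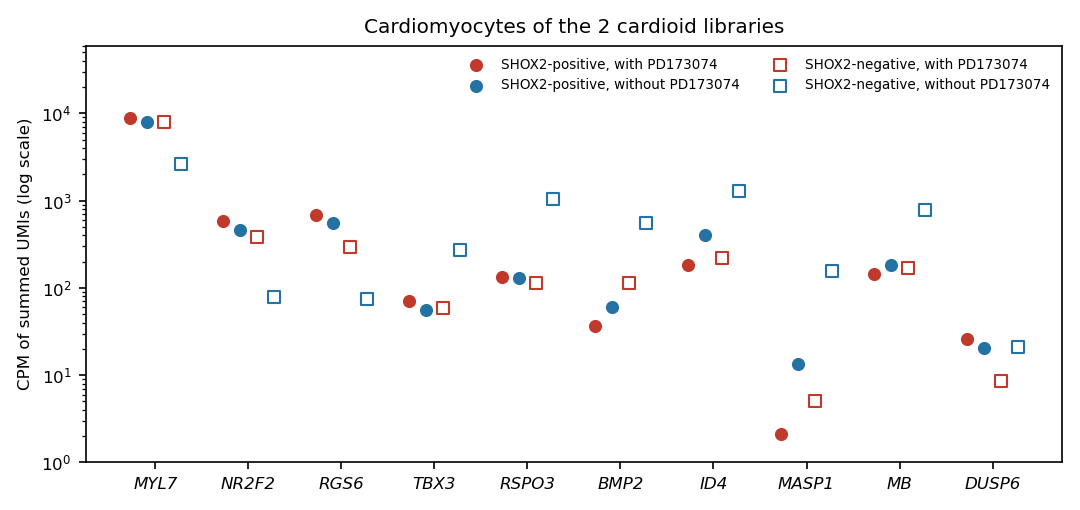
Level in CPM (log scale, from summed UMIs, no error bars) of 10 genes in members (filled circles) with and without PD173074 and in SHOX2-negative cardiomyocytes (open squares) with and without it. For MYL7, NR2F2, TBX3 and RSPO3 both sets of members lie near the SHOX2-negative cells with PD173074, and the SHOX2-negative cells without PD173074 stand apart, at 2605, 79.5, 271 and 1046 CPM.

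Many of the genes apart between members of the 2 libraries rested on few cells. Of the 18 higher with PD173074, 16 were found in fewer than 5 members without it, and 18 of the 41 lower owed over 50% of their UMIs without PD173074 to 1 cell. PENK, the precursor of enkephalins, had 156 CPM in members with PD173074 and 4.50 CPM in members without it. GRIA4, a glutamate receptor subunit, had 5.56 CPM with PD173074 and 58.5 CPM without it, from 4 cells. SFRP4, a WNT antagonist, had 1.06 and 83.3 CPM, with UMIs in 5 members without PD173074. Cell cycle genes were at 487 CPM summed in members with PD173074 and 149 CPM in members without it. Of 8 tested, 3 were placed higher with PD173074, against 0.217% of all genes tested in members. These 3 are among the 18 above, most of which were found in fewer than 5 members without PD173074. MKI67 of this list had UMIs in 24 of 419 members with PD173074 and in 1 of 70 without it. In SHOX2-negative cardiomyocytes the sums were 471 and 394 CPM.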

How the data were processed

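Single-cell RNA of H9 cells was counted in 11 libraries. For each, the authors deposited a matrix of raw UMI counts. The submitters' processing notes name Cell Ranger 7.0.0 and hg38. The annotation release, and whether reads in introns or on the opposite strand were counted, are not given in the sources used here, so overlapping antisense genes such as TRDN-AS1 are uncertain.

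Groups came from the treatment label. Run 1 of each group was used, since runs shared their barcodes, with UMI totals per barcode correlated between runs (r of 0.998 or more on a log10 scale). Run 3 without PD173074 was shallower, at 12266166 UMIs against 23074862 in run 1. Cells had at least 1000 UMIs, at least 500 genes and at most 30% mitochondrial UMIs. UMIs were summed over members and over SHOX2-negative cardiomyocytes of 1 library, and given as CPM and log2 ratios with exact conditional binomial 95% intervals. Genes were placed apart at 20 CPM or more on the higher side with the whole interval beyond 1.5-fold, or 2-fold between groups. Genes of the rule were left out of all counts. A count of 0 was set to 3 counts. Shares have exact Clopper-Pearson intervals, and levels by SHOX2 class exact Poisson intervals. Epithelial and endoderm cells had TNNT2 and MYH6 under 0.15% and at least 3 UMIs of EPCAM, CDH1, CLDN4 and CLDN6. The steps were tested on simulated data. Python 3.11.15, numpy 2.4.6, scipy 1.17.1, pandas 2.3.3 and matplotlib 3.10.9 were used.

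The members and gene lists were chosen with earlier results of these data known. Named genes were the 12 highest and 12 lowest placed apart in all libraries, the 6 highest and lowest of each comparison, the node, channel, autonomic and working muscle lists, and up to 4 genes of each other list; mitochondrial, ribosomal and clone-named genes were left out. In the 2D culture 1 UMI in the 6 members is 31.2 CPM, above the 20 CPM floor. Its gene comparisons are therefore not reported, and genes placed apart in both cardioid libraries took the place of those in all 3, a choice made after the data were seen. Genes the rule named that rest on 1 or 2 cells are not all listed. A few further genes that the rule named are not reported here, though they count in the totals of their lists.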

Additional observations from a re-analysis of the deposited data

Results flagged for a closer look

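Some genes were placed apart in opposite directions in the 2 cardioid libraries, with members over SHOX2-negative cardiomyocytes given as log2 ratios. The difference between the libraries was not tested, and each library is 1 sample. PENK had 1.32 with PD173074 and -3.37 without it, and the value without it rests on 2 UMIs. HAS2, a hyaluronan synthase, had 2.05 with PD173074 and -1.82 without it. CADM2, an adhesion gene, had 1.64 with PD173074 and -1.16 without it. RABGAP1L had -0.71 with PD173074 and 1.36 without it, CNTN3, a contactin, -1.01 and 1.64, and MDK, a growth factor, -0.72 and 1.01. For HAS2 the members had 56.1 CPM with PD173074 and 42.8 CPM without it, and the SHOX2-negative cardiomyocytes 13.5 and 151 CPM. For MDK the members had 745 and 698 CPM, and the SHOX2-negative cardiomyocytes 1228 and 345 CPM.

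SHOX2 was also found outside the cardiomyocytes, in 8.94% of cells below the threshold on TNNT2 and MYH6 with PD173074 (111 of 1241, 7.42 to 10.7), against 4.24% of epithelial and endoderm cells. After thinning these were 3.85% and 1.30%. The epithelial and endoderm cells are part of the cells below the threshold, with 542 of the 1241 cells and 23 of the 111. Without PD173074 the share below the threshold was 3.71% (2.21 to 5.80), against 2.01% of epithelial and endoderm cells (0.417 to 5.77). The 2 intervals overlap, and after thinning the shares were 1.35% and 0.676%.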

How the results depend on the processing

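Membership moved with the SHOX2 threshold and with depth. The share of members with PD173074 was 7.24% at 2 or more SHOX2 UMIs, 13.9% with no limit on NPPA and NR2F1, 10.9% with TNNT2 and MYH6 at 0.5% or more and 7.06% when cells were thinned before the rule. Without PD173074 it was 1.34% in run 3, 1.04% at 2 or more SHOX2 UMIs, 3.0% at the 0.5% threshold and 1.27% after thinning, and in the 2D culture 0.0144% at 2 or more SHOX2 UMIs. The order of the groups was the same in each of these settings. The genes higher and lower in members with PD173074 numbered 160 and 102 after thinning, 531 and 365 with no floor on the level, and 151 and 90 at 2-fold. Without PD173074 the higher genes numbered 460 with no floor, 191 at 2-fold and 193 against NR2F2-positive cells, and the lower genes 75 after thinning, 263 with per-cell means and 75 at 2-fold. Between members with PD173074 and without it, 10 genes were higher in run 2 and 9 at 2 or more SHOX2 UMIs, and 67 were lower with no floor. For thinning, floor and fold these follow from fewer UMIs, more genes and a stricter threshold; for the others the cause was not tested. Of 63 named genes placed apart with PD173074, 31 kept their call in all 17 alternatives, and of 85 without it 33 did. A few reversed their direction. With PD173074 these were PENK after thinning (-0.33), and COL6A3 (-0.39) and TNC (-1.44) at the 0.5% threshold. Without PD173074 they were PENK at the 0.5% threshold (0.61), ALDH1A2 in run 3 (0.62) and KRT19 in run 3 (-0.62) and without the deepest cells (-0.95). The deepest member without PD173074 held 10.6% of the UMIs of members there, and without it 339 genes were higher and 210 lower. No paired analysis was possible because each group is 1 sample, whose numbered libraries are runs of the same droplets.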

Other observations

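Other genes higher in members of both libraries, chosen after their values were seen, included PTGDS, which makes prostaglandin D2. With PD173074, PTGDS had 524 CPM in members and 81.9 CPM in SHOX2-negative cardiomyocytes. Without PD173074 these were 547 and 95.4 CPM. PTGDS was not particular to members. SHOX2-positive cells below the threshold on TNNT2 and MYH6 had more of it, 925 CPM in the treated library and 922 CPM in the untreated one. PRDM6, a repressor known from smooth muscle, had 132 against 38.9 CPM with PD173074 and 115 against 11.3 CPM without it. NELL1, a secreted protein gene, had 196 against 40.2 CPM with PD173074 and 205 against 7.99 CPM without it, and it was at 40.1 CPM in SHOX2-positive cells below the threshold on TNNT2 and MYH6 with PD173074. Of 11 tested genes of hypoxia and glycolysis, LDHA and BNIP3 were lower in members without PD173074 and none was higher. LDHA, the lactate dehydrogenase, had 1008 CPM in members and 1820 CPM in SHOX2-negative cardiomyocytes there, and 494 and 743 CPM with PD173074, where it was not placed apart. Of the immediate early list, 6 of 10 tested genes were higher in members without PD173074, with FOS at 599 against 165 CPM and 40.2% of its UMIs in 1 cell, and 1 of 11 with PD173074.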
